A study of Mus musculus with 14 samples.

Results

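*Prox1*-high cells were 345 of the 2684 differentiated neurons with pontine marker UMIs in 6 libraries of mouse hindbrain at E18.5, and 345 of all 64049 barcodes in those libraries. They were chosen by measured values, the raw unique molecular identifiers (UMIs, 1 per captured RNA molecule) of each cell. A cell needed at least 1000 genes, under 10% of its UMIs from mitochondrial genes, at least 20 UMIs of *Mapt*, at least 1 of *Barhl1*, at least 1 of *Hoxb2*, *Hoxb3* and *Hoxb4* together, and none of *En2* or *Nhlh1*. Cells within these limits are called differentiated pontine-gated cells here. Of these, a *Prox1*-high cell held at least 3 UMIs of *Prox1*, at most 2 of *Ephb1* and at most 1 of *Hoxb5*. The other 2339 gated cells fell into 687 *Ephb1*-high cells, 355 *Hoxb5*-high cells, 931 cells low in all 3 genes, and 366 cells high in several or over a limit.

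The pontine nuclei are a relay between the cerebral cortex and the cerebellum. Their glutamatergic neurons arise at the caudal rhombic lip from progenitors that express the basic helix-loop-helix factor *Atoh1*, and migrate along the brainstem surface to the ventral pons. Members of the anterior Hox groups mark the hindbrain level from which they come, and *Barhl1* and *Pax6* are expressed along the way. *Prox1* is a homeodomain factor known for roles in lymphatic, liver, lens and neuronal development, and *Cdkn1c* encodes a cyclin-dependent kinase inhibitor from an imprinted locus.

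All 6 embryos, of strain C57BL/6J, carried 1 *Atoh1* Cre allele and 1 Rosa lsl-tdTomato allele, a red reporter that Cre switches on for good. The Cre sequence takes the place of the *Atoh1* coding region, so each control embryo (*Atoh1* Cre/+; Rosa lsl-tdTomato/+, 3 libraries) had 1 working copy, and each *Atoh1* S193A/- embryo (*Atoh1* Cre/S193A; Rosa lsl-tdTomato/+, 3 libraries) had only the copy with the S193A change, which removes a phosphorylated serine and leaves a partial function. Each library was 1 embryo, and same-numbered libraries were littermates. Whole hindbrains were dissociated and TdTom+ DAPI- cells sorted, so cells of every *Atoh1* lineage entered and the site of a cell in the brain was not recorded. The libraries held 108239001 to 183911797 UMIs, and 8061 to 11355 cells passed the gene and mitochondrial limits. Of the 64049 barcodes, 1034 occurred in at least 2 libraries; no barcode was shared between *Prox1*-high cells, and 8 of the 345 had a barcode that also occurred in another library.

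The label names *Prox1*, *Cdkn1c* and *Lhx2* as markers of these cells. *Prox1* was fixed by the rule, *Cdkn1c* was found in most of the cells but also in most of the other gated cells, and *Lhx2* was found in few. *Prox1* (ENSMUSG00000010175, chromosome 1, 190118035 to 190170714, minus strand, mm10) chose the cells and was at 333 ± 26.9 CPM (SD, n = 6 libraries) in *Prox1*-high cells and at 57.2 ± 7.45 CPM in the other gated cells, where CPM is the summed UMIs of a gene divided by the UMIs of all genes in those cells of a library and scaled to counts per 1000000. *Cdkn1c* (ENSMUSG00000037664, chromosome 7, 143458339 to 143461050) was detected in 84.7% ± 3.48 of control and 82.4% ± 6.77 of *Atoh1* S193A/- *Prox1*-high cells, and in 72.6% ± 1.96 and 72.5% ± 1.25 of the other gated cells. *Lhx2* (ENSMUSG00000000247, chromosome 2, 38339281 to 38369733), a LIM homeodomain factor, had a UMI in 26.7%, 24.6% and 32.0% of the control cells and in 18.2%, 6.25% and 11.8% of the *Atoh1* S193A/- cells. It therefore marked a minority of *Prox1*-high cells in every library, and in this share the controls did not overlap with the mutants. In CPM the genotypes did overlap for *Lhx2* in *Prox1*-high cells. Its genotype difference there did not pass the edgeR test described further on. In the other gated cells an *Lhx2* UMI was found in 5.64% to 8.79% (control) and 1.35% to 3.47% (*Atoh1* S193A/-). The gap in detection was therefore not limited to *Prox1*-high cells. A comparison set, called *En2* cells here, had an *En2* UMI and none of *Hoxb2*, *Hoxb3* or *Hoxb4*, with no limit on *Mapt* or *Barhl1*. In these cells *Lhx2* had a UMI in 2.76% ± 0.440 (control) and 3.72% ± 0.332 (*Atoh1* S193A/-), at median depths of 13454 to 17947 and 11423 to 15262 UMIs. Whether those UMIs were free RNA or RNA of the cells themselves was not tested. The *Prox1*-high cells had library medians of 16113 to 20493 and 16202.5 to 18030 UMIs.

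After each cell was thinned to 10000 UMIs, *Lhx2* was detected in 18.53% ± 2.69 of control and 9.79% ± 3.07 of *Atoh1* S193A/- *Prox1*-high cells, against 5.50% ± 0.905 and 1.92% ± 0.930 of the other gated cells (SD, n = 3). The pontine gene *Pax6* was detected in 78.9% ± 3.20 of control and 86.4% ± 1.10 of *Atoh1* S193A/- *Prox1*-high cells before thinning, and in 87.8% ± 0.430 and 88.8% ± 3.18 of the other gated cells, so that every control library had it in a smaller share of its *Prox1*-high cells. *Slc17a6*, the vesicular glutamate transporter, was at 164 ± 18.6 CPM against 138 ± 16.2 CPM in the other gated cells.

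**Figure D1:**
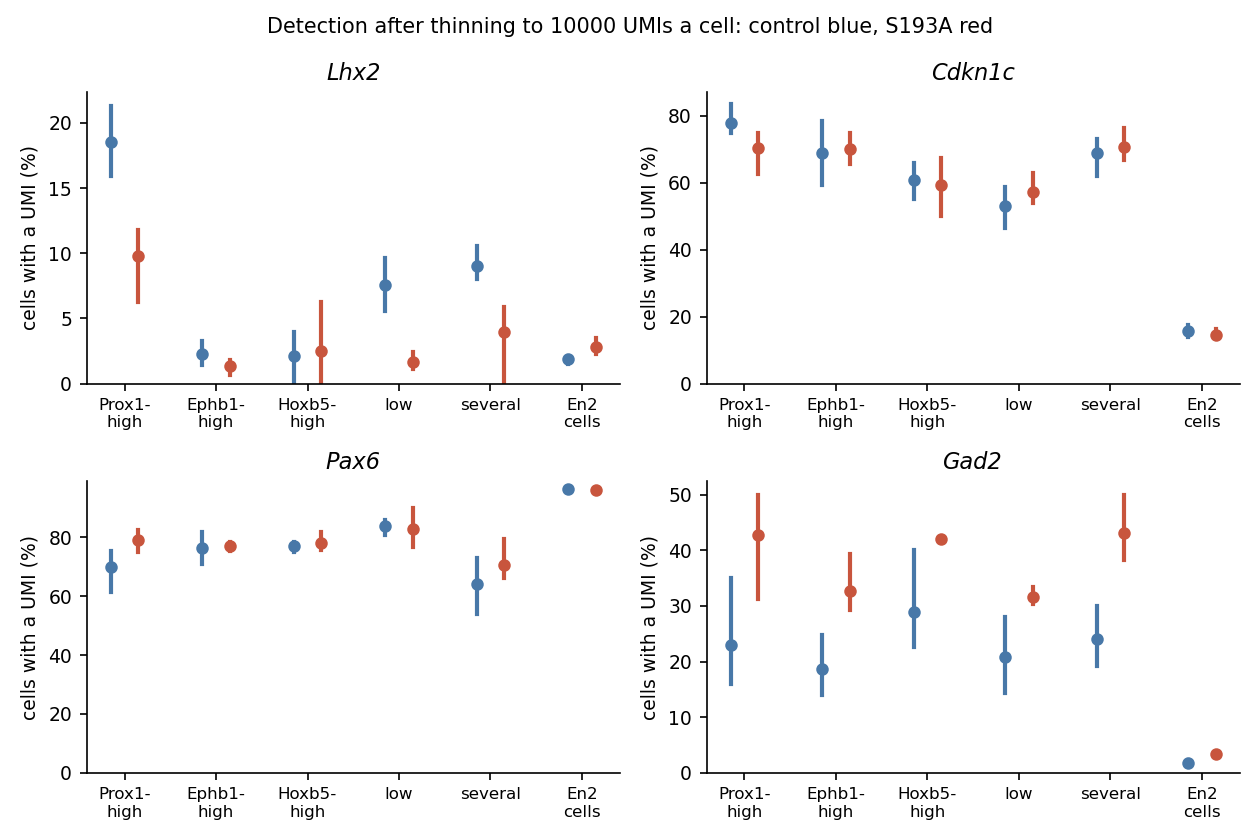
Share of cells with at least 1 UMI (%) of *Lhx2*, *Cdkn1c*, *Pax6* and *Gad2* after each cell was thinned to 10000 UMIs, by class of gated cell and in *En2* cells. The latter had an *En2* UMI and none of *Hoxb2*, *Hoxb3* or *Hoxb4*, with no limit on *Mapt* or *Barhl1*. Points are means of 3 libraries and lines run from the lowest to the highest library, control in blue and *Atoh1* S193A/- in red. *Lhx2* stands at 18.53% in control *Prox1*-high cells and at 1.87% in control *En2* cells.

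*Atoh1* and its relatives bind DNA at the E-box, CANNTG. To show the sequence near the gene that names these cells and near *Zbtb20*, the named gene with the largest rise described further on, the 250 bases before each RefSeq start (GRCm38.p6, 5′ to 3′ on the strand of the gene) follow, with every CANNTG in capitals. For *Prox1*, the windows are chr1:190170828-190171077 and chr1:190169516-190169765, both on the minus strand. For *Zbtb20*, a zinc-finger repressor, the window is chr16:43247034-43247283 on the plus strand.
*Prox1* first start: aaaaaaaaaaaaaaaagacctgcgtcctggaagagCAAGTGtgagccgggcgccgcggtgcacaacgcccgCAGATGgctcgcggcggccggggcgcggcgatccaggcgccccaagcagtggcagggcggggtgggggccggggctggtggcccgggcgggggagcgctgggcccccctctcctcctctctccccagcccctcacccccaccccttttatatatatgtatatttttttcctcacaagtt
*Prox1* other start: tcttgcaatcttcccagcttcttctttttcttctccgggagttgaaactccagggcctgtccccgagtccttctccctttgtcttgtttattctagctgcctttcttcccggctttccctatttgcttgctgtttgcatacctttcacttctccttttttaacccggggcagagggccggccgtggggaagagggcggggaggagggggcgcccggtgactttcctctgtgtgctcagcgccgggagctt
*Zbtb20*: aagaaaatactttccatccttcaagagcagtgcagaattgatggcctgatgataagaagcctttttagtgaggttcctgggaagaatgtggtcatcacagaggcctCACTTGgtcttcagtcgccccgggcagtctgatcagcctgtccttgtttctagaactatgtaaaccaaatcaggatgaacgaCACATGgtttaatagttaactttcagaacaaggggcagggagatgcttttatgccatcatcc

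The first *Prox1* window held 2 matches, 1 of them CAGATG, the other *Prox1* window held none and the *Zbtb20* window held 2. Of all 32851 windows of this length, 66.22% held CANNTG and 14.44% held CAGATG on either strand. Windows of genes higher in *Prox1*-high cells held CANNTG in 58.29% of 585, those of lower genes in 59.95% of 769, and those of all genes tested in 56.0% of 10385. A match is a stretch of letters and says nothing of binding.

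*Prox1*-high cells took a smaller share of the gated cells in *Atoh1* S193A/- embryos than in controls. They were 60 of 333 gated cells in control 1 (18.02%, 95% exact binomial interval 14.04 to 22.6), 69 of 388 in control 2 (17.8%, 14.1 to 22.0) and 122 of 753 in control 3 (16.2%, 13.6 to 19.03). In *Atoh1* S193A/- embryos they were 44 of 447 in embryo 1 (9.84%, 7.24 to 13.0), 16 of 238 in embryo 2 (6.72%, 3.89 to 10.7) and 34 of 525 in embryo 3 (6.48%, 4.53 to 8.93). Every control was above every *Atoh1* S193A/- library. The intervals cover counting error only.

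The mean share of the 3 controls was 17.3% ± 0.988 (SD) and that of the 3 *Atoh1* S193A/- embryos 7.68% ± 1.88, a ratio of 2.26. Their logits differed by -0.93 (SE 0.175), and limma gave an adjusted p = 0.000171 over the 5 classes. It gave the same SE to each of the 5 classes, a spread pooled over them and not that of the *Prox1*-high share alone. The 5 shares also depend on one another, since they make up the same gated cells. An exact 2-sided permutation test of the difference in percent gave p = 0.1, the smallest that 3 against 3 libraries allow. The other classes did not pass the test: *Ephb1*-high cells made up 23.1% ± 2.07 of control and 27.7% ± 6.44 of *Atoh1* S193A/- gated cells (limma adjusted p = 0.381), and *Hoxb5*-high cells 12.2% ± 1.504 and 13.8% ± 3.01 (limma adjusted p = 0.59). Cells low in all 3 genes were 34.7% ± 3.43 and 35.9% ± 5.87, and cells of the several class 12.6% ± 3.17 and 15.0% ± 1.54 (limma adjusted p = 0.803 and 0.381). As a share of all cells that passed the gene and mitochondrial limits, the control embryos had 0.937% ± 0.346 *Prox1*-high cells and the *Atoh1* S193A/- embryos 0.324% ± 0.116 (limma adjusted p = 0.0377).

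The call was lost in thinned cells. When cells were thinned to 10000 UMIs before all of the limits were applied, fewer cells were gated and fewer were *Prox1*-high. The shares were 10.9% ± 0.306 and 6.21% ± 3.68, a logit difference of -0.71 (SE 0.296) that no longer passed the test (limma adjusted p = 0.11). Every control still lay above every *Atoh1* S193A/- library (10.6% or more against 9.95% or less). The counts were then 14 of 125, 25 of 227 and 37 of 349 gated cells in control and 21 of 211, 3 of 116 and 18 of 295 in *Atoh1* S193A/- libraries, and *Hoxb5*-high cells were instead called, at 10.5% ± 0.383 and 17.1% ± 1.96 (limma adjusted p = 0.0136). Shares at a limit of 2 *Prox1* UMIs were 23.2% and 11.5%, and at a limit of 4 they were 13.8% and 5.73%. A lower share cannot be told from less *Prox1* RNA per cell. Among cells within the *Ephb1* and *Hoxb5* limits, 124 held exactly 2 *Prox1* UMIs and were left out, and 80 held exactly 3 and were kept.

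**Figure D2:**
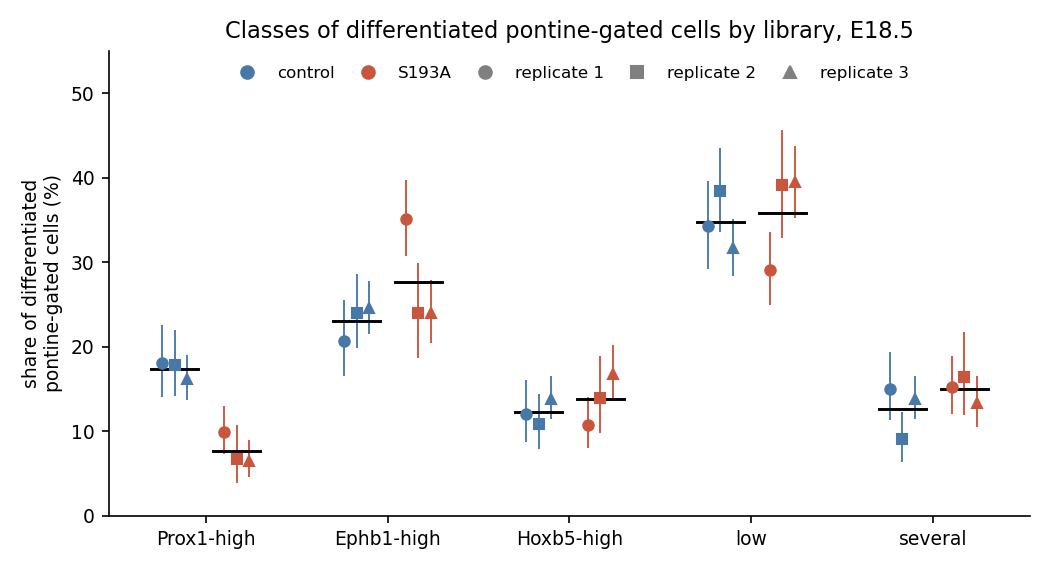
Share (%) of differentiated pontine-gated cells in each of the 5 classes, by E18.5 library. Points are libraries with exact 95% binomial intervals, black bars are means of 3 libraries, control in blue and *Atoh1* S193A/- in red. The *Prox1*-high class stands at 16.2% to 18.02% in control and 6.48% to 9.84% in *Atoh1* S193A/- libraries, while the genotypes overlap in the other 4 classes.

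*Prox1*-high cells were higher than the other gated cells in *Zbtb20*, *Nr2f1*, *Nrp1* and *Cdkn1c*, and lower in *Dkk2*, *Pcp4* and *Calb1*. Summed UMIs were compared within each library with edgeR's quasi-likelihood test, and a gene was called at a Benjamini-Hochberg adjusted p (FDR) under 0.05 and a log2 difference over 0.25. Of 10260 genes tested, 1312 were called (12.8%), 584 higher (5.69%) and 728 lower (7.1%). The limits on *Prox1*, *Ephb1* and *Hoxb5* were set on these same cells, so a gene whose counts go with theirs from cell to cell is moved apart by the choice itself, and the calls describe the cells. A gene was tested where at least 10% of the cells of either group held a UMI of it, so a gene that passed through 1 group only had to differ. Among the genes named below, *Dkk2*, *Adra2a*, *Calb1*, *Cdh6*, *Hoxc5*, *Ntn1* and *Etv1* passed through the other gated cells only, and *Lhx2*, *Robo3*, *Unc5b*, *Sema3d*, *Crh* and *Bcl2l11* through the *Prox1*-high cells only. *Prox1*-high cells had a lower median depth than the other gated cells in each of the 6 libraries; the latter had library medians of 16685 to 22661 UMIs in control and 17208 to 19988 UMIs in *Atoh1* S193A/- embryos. With comparison cells matched on UMIs, 787 genes were called (7.67%), 311 higher (3.03%) and 476 lower (4.64%).

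Among the transcription factors, *Zbtb20* (chromosome 16, 42875881 to 43642602) had the largest rise of the named genes. It was at 485, 429 and 581 CPM in control and at 172, 518 and 236 CPM in *Atoh1* S193A/- *Prox1*-high cells, and at 57.4 to 117 CPM in the other gated cells, which was below the *Prox1*-high value in every library (log2 difference 2.11, SE 0.118, edgeR FDR = 1.32e-14). *Nr2f1*, an orphan nuclear receptor that patterns cortex and hindbrain, was at 150 ± 44.2 CPM against 59.0 ± 11.2 CPM (log2 1.37), and its relative *Nr2f2* at 162 ± 28.4 CPM against 83.7 ± 27.4 CPM (log2 0.93). *Lhx2* was at 23.7 ± 12.1 CPM against 7.79 ± 7.32 CPM (log2 1.56). *Meis1*, *Meis2* and *Pbx3*, cofactors of Hox proteins, were 3 of the 9 cofactors tested and all rose, *Meis2* from 98.6 ± 51.9 to 188 ± 72.8 CPM (log2 0.91). The other 6 cofactors did not pass, and of all genes tested 5.69% rose.

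*Zic1*, *Zic2*, *Zic4* and *Zic5*, zinc-finger factors of dorsal neural tissue, were higher in *Prox1*-high cells, while the median log2 difference over all genes tested was 0.01. *Zic1* was at 1666 ± 137 CPM against 1086 ± 70.6 CPM (log2 0.60), and *Zic4* at 677 ± 42.9 CPM against 464 ± 44.1 CPM (log2 0.54, and -0.062 against *Hoxb5*-high cells alone).

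The Hox genes outside the rule did not move together. *Hoxa2* rose, from 37.9 ± 1.94 to 57.0 ± 8.86 CPM (log2 0.48), and *Hoxa4*, *Hoxa5*, *Hoxc4* and *Hoxc5* fell, so that of 7 tested 1 was higher and 4 from more posterior groups were lower. Over all genes tested, 5.69% were higher and 7.1% lower. The rule allowed at most 1 *Hoxb5* UMI in a *Prox1*-high cell, while the other gated cells include the *Hoxb5*-high cells. The count of Hox genes therefore depends on the choice of cells, and the part of that limit was not tested. *Hoxa5* was at 38.8 ± 31.3 CPM against 275 ± 71.6 CPM (log2 -2.93). Its direction depended on the comparison: against *Ephb1*-high cells alone *Hoxa5* was higher in *Prox1*-high cells (log2 2.76), and against cells low in all 3 genes too (log2 0.82). *Hoxc4*, at 47.1 ± 18.3 CPM against 118 ± 10.1 CPM, behaved likewise (0.87 and 0.12), and *Hoxa4* was higher against *Ephb1*-high cells alone (0.58). Among retinoid genes, *Crabp1*, a cytoplasmic retinoic acid binding protein, was at 298 ± 83.1 CPM against 103 ± 20.5 CPM (log2 1.60), and *Rarb*, a retinoic acid receptor, was lower (9.09 ± 3.73 against 12.3 ± 1.71 CPM, log2 -0.68, and 0.39 against *Hoxb5*-high cells alone). *Rarb* was called in 10 of 21 settings.

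Of 6 pontine genes outside the rule that were tested, *Nfia* and *Nfib*, nuclear factor I genes, rose (log2 0.52 and 0.31), *Barhl2* fell (13.2 ± 4.35 against 19.2 ± 3.75 CPM, log2 -0.78) and the other 3 did not pass, among them *Pax6* at 294 ± 36.7 CPM against 291 ± 32.0 CPM (log2 -0.03, edgeR FDR = 0.783). Over all genes tested, 5.69% rose and 7.1% fell. Of the rule's own genes, *Barhl1* was at 324 ± 34.7 CPM against 260 ± 11.1 CPM and *Hoxb4* at 20.8 ± 3.79 CPM against 41.4 ± 4.45 CPM, with no test.

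**Figure D3:**
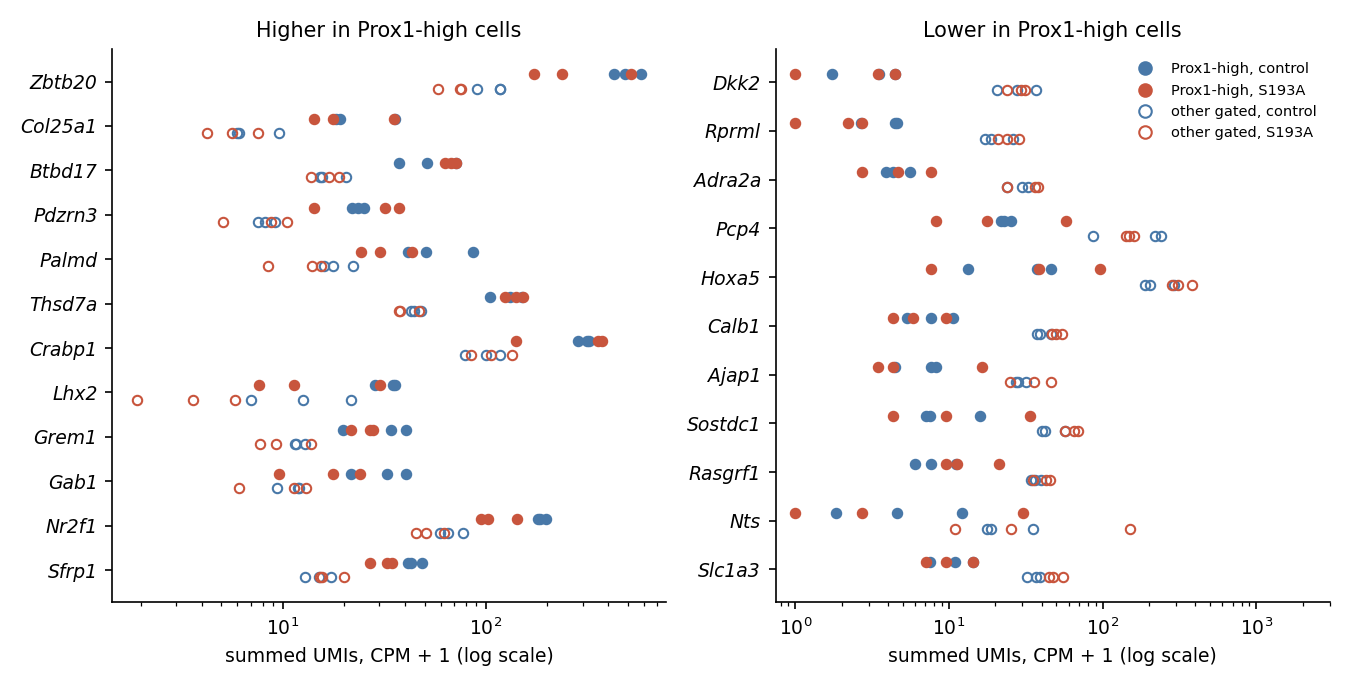
Summed UMIs as CPM + 1 (log axis) of the 12 named rises (left) and 11 named falls (right) in *Prox1*-high cells, by E18.5 library. Filled points are *Prox1*-high cells and open points the other gated cells, control in blue and *Atoh1* S193A/- in red. *Zbtb20* heads the rises at a log2 difference of 2.11 and *Dkk2* the falls at -3.59.

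The counts of genes of axon guidance and adhesion that follow stand beside 5.69% of all genes tested that rose and 7.1% that fell. Of 20 guidance receptors and ephrin-B ligands tested, 5 rose (*Unc5b*, *Robo3*, *Nrp1*, *Plxna2* and *Efnb2*, which encodes ephrin-B2, a ligand of Eph receptors) and 9 fell. *Nrp1*, a receptor for class 3 semaphorins and VEGF, was at 377, 408 and 413 CPM in control and at 375, 314 and 350 CPM in *Atoh1* S193A/- *Prox1*-high cells, and at 158 to 195 CPM in the other gated cells (log2 1.07, SE 0.0474), with no overlap. *Robo3*, which tunes midline crossing, was at 11.1 ± 8.33 CPM against 3.53 ± 1.25 CPM (log2 2.00), and the netrin receptor *Unc5b* at 10.8 ± 4.11 CPM against 3.71 ± 0.964 CPM (log2 1.53). *Epha4*, a receptor for ephrins, was lower (32.8 ± 10.8 against 74.1 ± 9.17 CPM, log2 -1.23), and the netrin receptor *Unc5c* was too (179 ± 30.8 against 230 ± 17.5 CPM, log2 -0.37). Of 10 further ligands, *Slit3* and *Sema3d* rose and *Sema3a* and *Cxcl12* fell, as did *Ntn1*, at 1.30 ± 1.19 CPM against 6.70 ± 0.585 CPM, with a UMI in 2.32% of the *Prox1*-high and 11.6% of the other gated cells. Of 8 cadherins, the adhesion molecules that sort neurons into nuclei, 5 fell (*Cdh2*, *Cdh6*, *Cdh7*, *Cdh8* and *Cdh11*) and none rose. Against *Hoxb5*-high cells alone the log2 difference turned to 0.14 for *Cdh8* and to 0.85 for *Cxcl12*. The fall of *Sema3a* was called in 8 of 21 settings, and *Cxcl12* was called in 13 of 21. *Cdh6* was at 6.67 ± 3.12 CPM against 22.2 ± 3.61 CPM (log2 -1.67).

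*Dkk2*, *Adra2a*, *Pcp4* and *Calb1* were among the largest falls. *Dkk2*, a Wnt pathway modulator, was at 2.09 ± 1.43 CPM against 27.3 ± 5.82 CPM (log2 -3.59). *Adra2a*, an adrenergic receptor, was at 3.81 ± 1.69 CPM against 29.7 ± 6.03 CPM (log2 -3.02). *Pcp4*, a calmodulin-binding peptide, was at 24.6 ± 16.9 CPM against 165 ± 56.0 CPM (log2 -2.94), and *Calb1*, a calcium buffer, at 6.22 ± 2.48 CPM against 44.5 ± 6.46 CPM (log2 -2.65). Among the rises were *Btbd17* (59.4 ± 13.5 against 15.9 ± 2.53 CPM, log2 1.84), *Thsd7a* (133 ± 17.98 against 41.9 ± 4.40 CPM, log2 1.61) and the secreted inhibitors *Sfrp1* of the Wnt pathway (36.8 ± 7.90 against 15.1 ± 2.42 CPM, log2 1.37) and *Grem1* of the BMP pathway (27.4 ± 7.74 against 10.2 ± 2.26 CPM, log2 1.45).

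For transmission genes the same shares of all genes apply. Of 18 transmitter receptor subunits tested, *Grik1* and *Gabra2* rose and 7 fell, and of 18 voltage-gated channel genes 4 fell and none rose. The inhibitory list, which covers 11 genes, had 3 tested, of which 2 rose, *Gad2* among them. *Gad2* encodes a GABA-synthesizing enzyme and was at 82.0 ± 43.5 CPM against 42.1 ± 13.5 CPM (log2 0.96, and 0.78 in control libraries alone). Before thinning, a *Gad2* UMI was found in 29.4% ± 9.39 of control *Prox1*-high and 31.6% ± 2.66 of control other gated cells. That share was lower in the *Prox1*-high cells of control 2 and control 3. In *Atoh1* S193A/- embryos it was 52.6% ± 13.1 and 48.5% ± 2.54. After thinning, it was higher in *Prox1*-high cells of control 1 (35.0% against 24.2%) and control 3 (18.03% against 16.4%). It stayed lower in control 2 (15.9% against 25.96%). For *Atoh1* S193A/- embryos, the thinned share was higher in libraries 1 (50.0% against 33.6%) and 3 (47.1% against 35.01%). It was lower in library 2 (31.25% against 36.9%). *Slc17a6* was detected in most *Prox1*-high cells, and the glycinergic marker *Slc6a5* had no UMI in *Prox1*-high cells. The neuropeptide *Sst* was lower in sum (135 ± 143 against 274 ± 48.3 CPM, log2 -1.28), and its libraries lay far apart by litter: 371 and 249 CPM in the 2 embryos numbered 1, 53.9 and 90.2 CPM in those numbered 2, and 22.5 and 25.8 CPM in those numbered 3. Against *Hoxb5*-high cells alone *Sst* was higher (log2 0.75). *Crh*, a stress-related peptide, was at 18.97 ± 10.6 CPM against 10.9 ± 4.24 CPM (log2 1.00).

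The counts of cell-cycle and neuron list genes that follow stand beside 5.69% of all genes tested that rose and 7.1% that fell. *Cdkn1c* was not part of the rule. It was at 463, 560 and 565 CPM in control and 387, 354 and 291 CPM in *Atoh1* S193A/- *Prox1*-high cells, above the 170 to 253 CPM of the other gated cells in every library (log2 1.09, SE 0.0557). Of 9 inhibitors and cyclins tested, *Cdkn1b* (log2 0.29), *Ccnd1* (log2 1.11) and *Cdk4* (log2 0.26, close to the limit of 0.25 and called in 11 of 21 settings) rose and *Cdkn1a*, another kinase inhibitor, fell (log2 -0.36, and 0.13 against *Ephb1*-high cells alone). The rise of *Ccnd1* was not called without control library 3 (log2 0.51) or in *Atoh1* S193A/- libraries alone (log2 0.014, edgeR FDR = 0.996). Of 5 tested genes of the cell-division list only *Ccnd1* was called. Of 11 genes of immature neurons, *Nhlh2*, *Sox11* and *Igfbpl1* rose and *Neurod1*, *Neurod6* and *Gap43* fell, and of 10 of neuron maturation *Rbfox3* and *Nefl* rose and *Syt1*, *Snap25* and *Camk4* fell. Some of these directions depended on the comparison: against *Hoxb5*-high cells alone the log2 difference was 0.24 for *Neurod1*, 0.29 for *Neurod6* and -0.11 for *Nefl*, and in *Atoh1* S193A/- libraries alone it was 0.052 for *Neurod1* and 0.030 for *Neurod6*. *Nefl* was called in 11, *Neurod1* in 12 and *Neurod6* in 13 of 21 settings. *Sox11*, a factor of young neurons, was at 2628 ± 204 CPM against 1607 ± 76.2 CPM (log2 0.68), and *Snap25*, a synaptic vesicle fusion protein, at 124 ± 20.1 CPM against 175 ± 13.0 CPM (log2 -0.55).

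All 9 tested genes of its first E18.5 subtype list (*Zbtb20*, *Kctd12*, *Nrp1*, *Cdkn1c*, *Nr2f1*, *Crabp1*, *Meis2*, *Ppp1r14c* and *Syt4*) were higher in *Prox1*-high cells, with a median log2 difference of 1.09, although *Syt4* was lower against *Hoxb5*-high cells alone (log2 -0.57). That list was found on these libraries, and it also holds *Prox1*, so the count is not independent evidence. Of the lists for its other subtypes, 7 of 9, 6 of 9 and 2 of 10 tested genes were lower and 0, 1 and 2 were higher. Of all genes tested, 7.1% were lower and 5.69% higher. Those lists were found on these libraries too. *Ephb1* and *Hoxb5* are the study's marker genes for 2 of those subtypes, and the rule kept cells high in either out of the *Prox1*-high cells. Their counts are not independent evidence either.

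Further lists were called as follows, beside 12.8% of all genes tested. Of 16 cell-death genes, *Bcl2l11* and *Dap* rose and *Bad* fell, called in 13, 17 and 12 of 21 settings. Of 11 imprinted genes, *Cdkn1c* and *Grb10* rose and *Meg3*, *Ndn* and *Snrpn* fell, and of 6 Notch genes and 8 glutamatergic genes none rose, with *Grin2b* and *Gria4* lower. *Grb10* and *Ndn* were each called in 13 of 21 settings. Of 9 immediate early genes, which respond to dissociation, *Fos* and *Junb* were lower, *Fos* with a log2 difference of 0.0031 against *Hoxb5*-high cells alone.

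Markers of other cell types were summed over each list. In *Prox1*-high cells, the 7 microglia markers were at 0 to 1.72 CPM, with *C1qa*, *C1qc* and *Csf1r* at 0, the 8 vascular markers at 0 to 5.06 CPM, and the 6 red blood cell markers at 0 to 14.9 CPM, while 1 control library had 459 CPM of the latter in its other gated cells. The 9 markers of caudal *Lhx2* and *Lhx9* neurons were at 54.7 to 78.0 CPM in control and 43.4 to 76.4 CPM in *Atoh1* S193A/- *Prox1*-high cells, with *Foxb1* and *Evx1* at 0. The 12 granule lineage markers were at 634 to 675 CPM and 667 to 738 CPM, the 6 unipolar brush cell markers at 94.6 to 124 CPM and 123 to 174 CPM, and the 11 astroglial markers at 190 to 216 CPM and 187 to 253 CPM. The 11 inhibitory markers were at 92.9 to 143 CPM and 120 to 215 CPM. Of the granule lineage genes, *Neurod1*, *Cbln1* and *Etv1* were lower than in the other gated cells (*Cbln1* at log2 0.16 against *Hoxb5*-high cells alone), and of the astroglial genes *Sox9* and *Vim* were higher and *Fabp7* (called in 9 of 21 settings) and *Slc1a3* lower. Their part in the results above was not tested.

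*Prox1*-high cells were not alike among themselves. In control libraries, the 72 cells with an *Lhx2* UMI had *Nr2f1* at 338 ± 37.2 CPM and *Nr2f2* at 286 ± 53.5 CPM, and the 179 cells without had them at 126 ± 21.4 and 129 ± 13.4 CPM (SD over 3 libraries), higher with an *Lhx2* UMI in 3 of 3 libraries. *Nrp1* was also higher in 3 of 3 (479 ± 33.6 against 366 ± 21.8 CPM). In 3 of 3 libraries the cells with an *Lhx2* UMI were lower in *Pax6* (175 ± 73.0 against 308 ± 14.1 CPM), *Gad2* (27.3 ± 3.71 against 62.9 ± 29.7 CPM), *Hoxc4* (10.9 ± 6.36 against 63.9 ± 26.7 CPM) and the cannabinoid receptor *Cnr1* (152 ± 25.6 against 367 ± 56.2 CPM). *Zbtb20* stood at 504 ± 21.1 and 502 ± 119 CPM in the 2 sets. These are descriptions, with no test.

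The 36 control cells without a *Cdkn1c* UMI differed from the 215 with one. They had *Zbtb20* at 179 ± 14.2 CPM against 551 ± 78.1 CPM, *Pax6* at 553 ± 53.4 CPM against 219 ± 21.0 CPM, *Gad2* at 128 ± 34.1 CPM against 39.6 ± 19.6 CPM and *Nr2f2* at 307 ± 71.3 CPM against 149 ± 27.7 CPM, each in the same direction in 3 of 3 libraries. Of the gated cells, 4.79% ± 0.399 in control and 0.991% ± 0.713 in *Atoh1* S193A/- embryos were *Prox1*-high with an *Lhx2* UMI, and those without made up 12.5% ± 1.32 and 6.69% ± 1.22. Both kinds were lower in every *Atoh1* S193A/- library than in every control. Control cells with exactly 3 *Prox1* UMIs, just inside the rule, had *Cdkn1c* at 448 ± 59.2 CPM and *Nrp1* at 324 ± 40.0 CPM, and those with exactly 2, just outside, had them at 368 ± 32.4 and 239 ± 27.3 CPM, lower in 3 of 3 libraries. Few cells held exactly 3: 6 in control 1, 18 in control 2 and 32 in control 3. Other genes lay the other way in the mean: *Meis2* was at 121 ± 25.7 CPM inside and 152 ± 52.8 CPM outside, and *Nr2f2* at 158 ± 43.7 CPM inside and 237 ± 129 CPM outside. *Meis2* was higher inside in 0 of 3 control libraries and *Nr2f2* in 1 of 3.

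Within *Prox1*-high cells, few genes differed between genotypes. Of 10250 genes tested, 1 was called (0.00976%) and 483 had an unadjusted p under 0.05 (4.71%); DESeq2 called 1 as well. *Bcl11a* (chromosome 11, 24078056 to 24174123), which encodes a zinc-finger repressor, was at 257, 250 and 215 CPM in control and 405, 418 and 455 CPM in *Atoh1* S193A/- *Prox1*-high cells (log2 0.82, SE 0.117, edgeR FDR = 0.00641). The genotypes did not overlap. In the other gated cells it was at 450, 535 and 535 CPM and at 573, 527 and 634 CPM. The call was lost without control library 2 (edgeR FDR = 0.0507), control library 3 (0.107) or *Atoh1* S193A/- library 3 (0.0615), and in *Prox1*-high cells without an *Lhx2* UMI (log2 0.73, FDR = 0.0707).

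With littermates as a replicate block, 6 genes were called (0.0585%), 3 higher (0.0293%) and 3 lower (0.0293%) in *Atoh1* S193A/- cells. *Bcl11a* (log2 0.83, FDR = 0.000329), *Gad2* (log2 1.11, FDR = 0.00254) and the protocadherin *Pcdh17* (log2 0.84, FDR = 0.0107) were higher. *Cdkn1c* (log2 -0.61, FDR = 0.0282) and *AY036118* (log2 -0.66, FDR = 0.0211) were among the 3 lower genes. *AY036118* was named after its values were seen. Without the block the FDR was 0.168 for *Gad2*, 0.185 for *Cdkn1c* and 0.286 for *Pcdh17*. *Gad2* was at 78.0, 35.7 and 43.9 CPM in control and 150, 70.1 and 114 CPM in *Atoh1* S193A/- *Prox1*-high cells, where control 1 lay above *Atoh1* S193A/- library 2 while each embryo exceeded its littermate. Its level in the other gated cells moved the same way, from 30.8 ± 7.29 to 53.4 ± 4.12 CPM, and the difference between the genotype effects in the 2 kinds of cell did not pass the test (log2 0.39, SE 0.232, edgeR FDR = 0.992).

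The 9 tested genes of the first E18.5 subtype list all had a fitted difference below 0 in *Atoh1* S193A/- *Prox1*-high cells, with a median of -0.51 on the log2 scale, and none was called without the replicate block. Of all genes tested, 50.5% had a fitted difference below 0. The list was found on these same libraries, so the count is not independent evidence. For 5 of the 9 the libraries did not overlap, beside 5.45% of all genes tested that were lower and 5.11% that were higher without overlap. *Cdkn1c* was lower in each *Atoh1* S193A/- library, as given above. *Nr2f1* was at 179, 185 and 196 CPM in control and 142, 93.5 and 102 CPM in *Atoh1* S193A/- cells (log2 -0.69, edgeR FDR = 0.241), *Ppp1r14c*, a phosphatase inhibitor, at 248, 248 and 262 CPM and 212, 150 and 158 CPM (log2 -0.51, FDR = 0.619), *Kctd12*, a GABA-B receptor subunit, at 280, 240 and 277 CPM and 203, 227 and 231 CPM (log2 -0.29, FDR = 0.994), and *Nrp1* as above (log2 -0.20, FDR = 0.994). *Zbtb20* overlapped, since *Atoh1* S193A/- library 2 at 518 CPM stood among the controls (log2 -0.81, FDR = 0.833). *Prox1* itself, which the rule held above its limit, was at 339 ± 20.3 CPM in control and 327 ± 35.8 CPM in *Atoh1* S193A/- cells.

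Over all genes higher in *Prox1*-high cells than in the other gated cells, 52 of 584 (8.90%) were lower in *Atoh1* S193A/- cells without overlap and 27 (4.62%) higher. Over those lower in *Prox1*-high cells that could be tested here, 20 of 641 (3.12%) were lower and 49 (7.64%) higher. The medians were -0.03 and 0.08 on the log2 scale. Both sets of genes were called on these same *Prox1*-high cells, 251 of the 345 from controls. The split between genotypes may therefore follow in part from the choice of genes. The share of *Prox1*-high cells with an *Lhx2* UMI differed between the genotypes as given above, and its part in these differences was not tested. Of the cell-division list, 7 of 10 genes could be tested between genotypes and none was called. All 7 had a fitted difference below 0, with a median of -0.98 on the log2 scale, beside 50.5% of all genes tested below 0. The share of cells with a UMI, pooled over libraries, was not lower for all of them. For *Mki67* it was 10.4% in control and 10.6% in *Atoh1* S193A/- *Prox1*-high cells. For *Ube2c* it was 8.8% and 13.8%, and for *Birc5* 6.4% and 13.8%. For *Pcna*, *Ccnd1*, *Top2a* and *Mcm2* it was lower in *Atoh1* S193A/- cells. *Top2a*, a DNA topoisomerase of dividing cells, and *Mcm2* passed the filter on low values only through the controls. Their lower levels therefore follow in part from the filter, and the count of 7 includes both. *Ube2c* and *Birc5* passed only through the *Atoh1* S193A/- cells. *Top2a* was at 10.8, 25.7 and 13.8 CPM in control and 7.28, 0 and 1.72 CPM in *Atoh1* S193A/- *Prox1*-high cells. The sum over all 10 genes was at 86.7 to 158 CPM in control and 66.8 to 91.0 CPM in *Atoh1* S193A/- *Prox1*-high cells, and its part in the other differences was not tested.

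**Figure D4:**
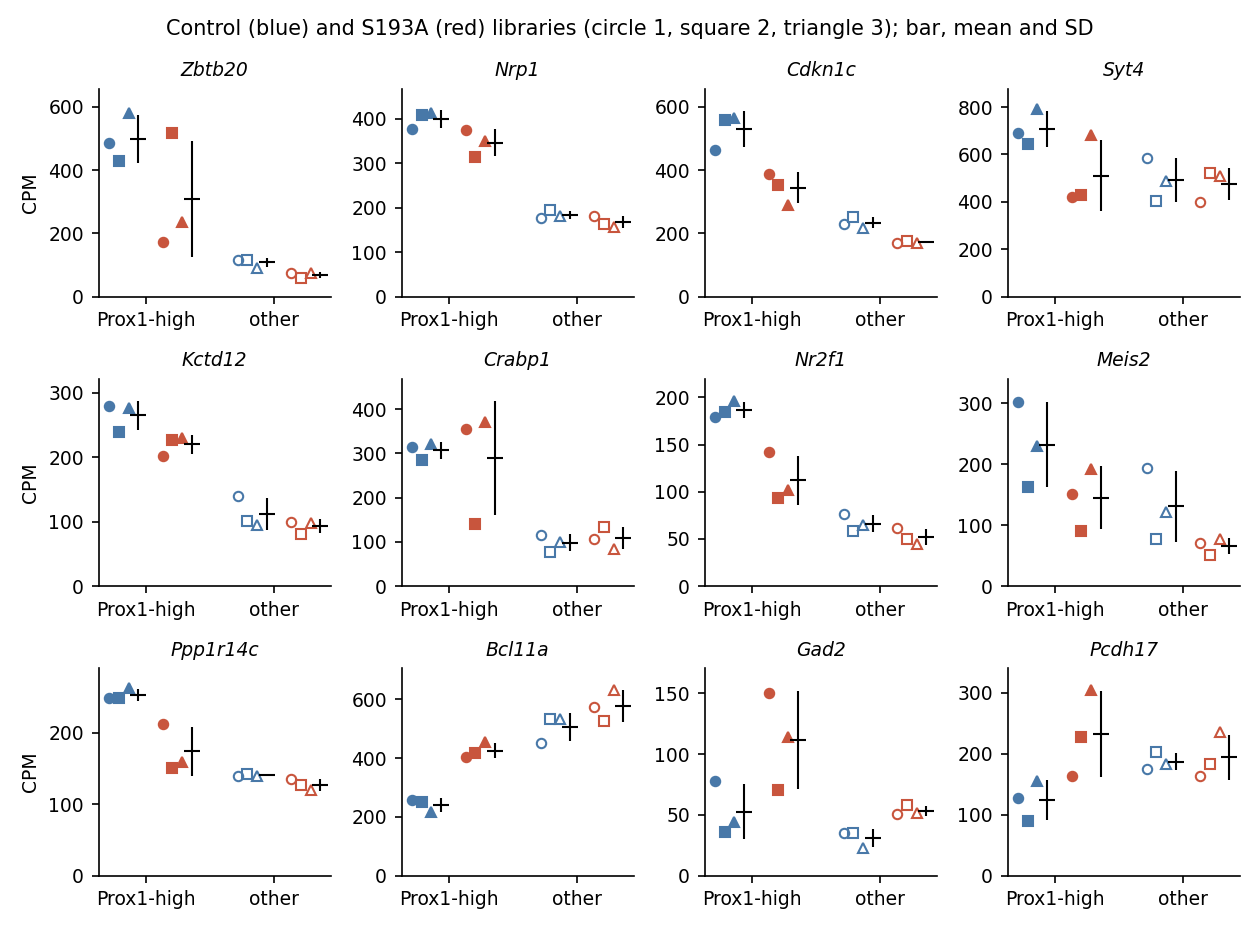
CPM of 9 genes of the first E18.5 subtype list and of *Bcl11a*, *Gad2* and *Pcdh17*, by library, in *Prox1*-high cells (filled) and in the other gated cells (open), control in blue and *Atoh1* S193A/- in red. Symbols mark the littermate pair, and black bars are means with SD of 3 libraries. *Bcl11a* separates the genotypes in *Prox1*-high cells, at 215 to 257 CPM and 405 to 455 CPM, and overlaps in the other gated cells.

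A genotype effect that differed between *Prox1*-high and other gated cells was called for 2 of 10260 genes (0.0195%), with 488 at an unadjusted p under 0.05 and 2 called by DESeq2. For *Bcl11a* the effect was larger in *Prox1*-high cells by 0.64 on the log2 scale (SE 0.111, edgeR FDR = 0.0161), and for *Cnr1* by 0.58 (SE 0.102, FDR = 0.0161). *Cnr1* was at 347, 293 and 279 CPM in control and 340, 451 and 472 CPM in *Atoh1* S193A/- *Prox1*-high cells, and at 366, 326 and 322 CPM and 295, 316 and 310 CPM in the other gated cells. The genotypes overlapped in *Prox1*-high cells through *Atoh1* S193A/- library 1. Both calls were lost without control library 2 (edgeR FDR = 0.0984 for both), *Atoh1* S193A/- library 2 (0.128 for both), control library 3 (0.358 for *Bcl11a*, 0.22 for *Cnr1*) or *Atoh1* S193A/- library 3 (0.0539 and 0.345).

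The same limits also found cells after birth. At P5, pontine nuclei were pooled from 11 to 13 control pups for each of 2 libraries, and 201 of 4881 gated cells (4.12%) and 133 of 2918 (4.56%) were *Prox1*-high. Since tissue and stage differ, these shares are not set against those of E18.5. *Cdkn1c* was at 400 and 472 CPM in the P5 *Prox1*-high cells and at 87.6 and 111 CPM in the other gated cells, *Zbtb20* at 173 and 159 CPM against 33.6 and 29.0 CPM, *Kctd12* at 324 and 331 CPM against 118 and 110 CPM, and *Meis2* at 90.7 and 80.7 CPM against 22.7 and 21.0 CPM. *Lhx2* was near the floor (5.86 and 3.44 CPM against 1.38 and 1.29 CPM). *Bcl11a* was lower in P5 *Prox1*-high cells (65.6 and 46.4 CPM) than in the other gated cells (273 and 241 CPM), as at E18.5 (333 ± 104 against 542 ± 60.1 CPM).

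These P5 libraries are separate from those of the E18.5 fit, though the cells were chosen by the same limits. A gene whose counts go with *Prox1*, *Ephb1* or *Hoxb5* from cell to cell is therefore moved apart again by the choice itself. Of the 584 genes called higher at E18.5, 443 (75.9%) were higher in *Prox1*-high cells of both P5 libraries, beside 42.8% of all genes tested. Of the 728 called lower, 546 (75.0%) were lower in both, beside 31.7%. The median log2 ratio at P5 was 0.29 for the genes called higher, -0.27 for those called lower and 0.04 for all genes tested. Of the 12 named rises, 11 were higher in both P5 libraries and *Crabp1* was lower (53.0 and 46.1 CPM against 80.5 and 78.8 CPM). Of the 11 named falls, 10 were lower in both and the neuropeptide *Nts* was higher (6.05 and 20.4 CPM against 1.70 and 3.64 CPM). With 2 pooled libraries of 1 genotype, no test of genotype was possible at P5.

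**Figure D5:**
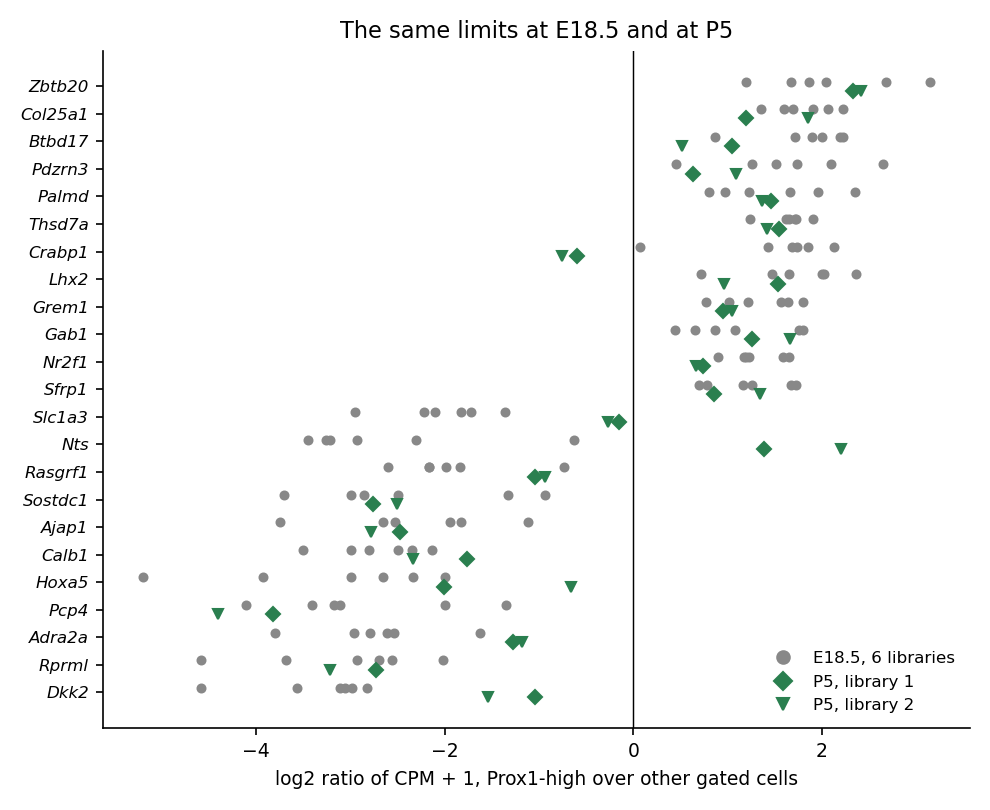
Log2 ratio of CPM + 1 in *Prox1*-high over other gated cells for the 12 named rises and 11 named falls, in the 6 E18.5 libraries (grey) and the 2 P5 libraries (green). Of the 23 genes, 21 lie on the same side of 0 in both P5 libraries as at E18.5, and *Crabp1* and *Nts* do not. The same limits chose the cells at both stages, and some of the genes passed the E18.5 filter on low values through 1 group only, so the count is not independent evidence.

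At E14.5, when pontine neurons are still being made, the limits found few cells. They were 12 of 338, 10 of 473 and 19 of 654 gated cells in control and 28 of 480, 6 of 206 and 19 of 479 in *Atoh1* S193A/- libraries. In control *Prox1*-high cells *Zbtb20* was at 104, 26.8 and 18.7 CPM and in the other gated cells at 58.3, 96.4 and 45.3 CPM, with no shared direction. *Nrp1* was at 15.3 to 32.7 CPM there and at 38.5 to 40.0 CPM in the other gated cells, and *Cdkn1c* at 527 to 854 CPM and 507 to 526 CPM. In the *Atoh1* S193A/- libraries *Nrp1* was at 44.7, 35.5 and 56.1 CPM in *Prox1*-high cells and at 54.8, 26.8 and 50.6 CPM in the other gated cells, and *Cdkn1c* at 483, 528 and 715 CPM and at 402, 540 and 464 CPM. Neither gene kept 1 direction over the 6 E14.5 libraries.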

How the data were processed

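Single-cell libraries were 10x Genomics 3′ v3.1. The authors deposited raw UMI counts per gene and barcode, made with Cell Ranger (5.0.1 in the E18.5 file headers) against mm10 with the reporter's WPRE sequence, with no normalization. Each of the 31054 genes' UMIs were summed over the chosen cells of a library, so that libraries, not cells, were the replicates; littermates share a number, and paired deviations correlated at 0.18, 0.05 and 0.20 over 5141 genes.

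A gene was tested where 10% or more of either group's cells held a UMI of it, with edgeR 4.0.16 (quasi-likelihood, TMM) in R 4.3.3, with library as a block between classes and no block between genotypes; calls needed FDR under 0.05 and an absolute log2 difference over 0.25. The 10 genes of the limits and 8 transcripts overlapping them were described only. Shares were compared with limma 3.58.1 on logits with 0.5 cells added. DESeq2 1.42.0, other limits, thinned cells, a replicate block and leaving out each library were tried as alternatives. Scrublet (scanpy 1.11.5) scores were used only to remove the highest 7.5% of cells as possible doublets in an alternative, which took out 22 *Prox1*-high cells.

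Named genes were those of the limits and the label, per test the 12 largest called rises and the 12 largest called falls at 20 CPM or more, same in direction in every library, called or abundant members of the gene lists, and genes the study names for its subtypes; sex-linked and mitochondrial genes were left out, and 3 genes are not reported here. Members and lists were chosen with earlier results of these data known. On simulated data the tests recovered 100%, 81% and 80% of 2-fold changes for the class, genotype and interaction comparisons, in runs of 10270, 10260 and 10270 genes. The changes were set only in genes with a mean of 20 CPM or more, so recovery at lower levels was not simulated. Depth ranged from 108239001 to 183911797 UMIs a library. The files hold no cell annotation that was used here. Promoter windows are RefSeq's, on GRCm38.p6.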

Additional observations from a re-analysis of the deposited data

Results flagged for a closer look

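For *Bcl11a* and *Cnr1*, the difference between *Atoh1* S193A/- and control embryos in *Prox1*-high cells differed from that in the other gated cells by a test of the difference itself. The difference of the log2 effects was 0.64 for *Bcl11a* and 0.58 for *Cnr1* (edgeR FDR = 0.0161 for both). Each was called in 5 of 9 settings, and both calls were lost without control library 2 or 3 or *Atoh1* S193A/- library 2 or 3. For *Cnr1*, which was named after its values were seen, the *Atoh1* S193A/- libraries numbered 2 and 3 were above all controls in *Prox1*-high cells and library 1 was not.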

How the results depend on the processing

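The lower share of *Prox1*-high cells kept its direction and its call in all alternatives but 2: after thinning the logit difference was -0.71, and the exact permutation test of the -9.65 percentage points could not pass. Without 1 library it ran from -1.07 to -0.845, and with the replicate block it was -0.93 (limma adjusted p = 0.00269). The count of genes called between classes was 813 with DESeq2, 787 with comparison cells matched on UMIs, 1981 against *Hoxb5*-high cells alone and 360 in *Atoh1* S193A/- libraries alone, and 899 to 1319 without 1 library. Between genotypes the count was 2 under 5% mitochondrial UMIs, 12 at a limit of 2 *Prox1* UMIs, 22 with no filter on low counts, 6 with the replicate block, 0 in cells without an *Lhx2* UMI, and 0 to 7 without 1 library, where it was 0 without control 2, control 3 or *Atoh1* S193A/- 3. The count for differing genotype effects was 15 with no filter and 0 to 5 without 1 library. The causes were not tested.

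Of 2503 alternative values for 126 genes named between classes, 2190 kept direction and call, 288 kept direction only and 25 reversed. Against *Ephb1*-high cells alone, the log2 difference turned to 2.76 for *Hoxa5*, 0.87 for *Hoxc4*, 0.58 for *Hoxa4*, 0.32 for *Neurod1*, 0.014 for *Cbln1*, 0.13 for *Cdkn1a* and 0.14 for *Plxna4*. Against *Hoxb5*-high cells alone it turned to 0.75 for *Sst*, 0.14 for *Cdh8*, -0.57 for *Syt4*, -0.062 for *Zic4*, 0.24 for *Neurod1*, 0.16 for *Cbln1*, 0.29 for *Neurod6*, -0.11 for *Nefl*, 0.85 for *Cxcl12*, 0.39 for *Rarb* and 0.0031 for *Fos*. Against cells low in all 3 genes it turned to 0.82 for *Hoxa5*, 0.12 for *Hoxc4*, 0.13 for *Plxna4* and 0.082 for *Gabra5*. In *Atoh1* S193A/- libraries alone it was 0.052 for *Neurod1* and 0.030 for *Neurod6*, and at a limit of 2 *Prox1* UMIs it was 0.14 for *Otx2*. *Bcl11a* kept its call between genotypes in 11 of 15 alternatives. With 16 to 122 *Prox1*-high cells a library, no genotype change under 2-fold was simulated.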
